A study of Mus musculus with 4 samples.

Results

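The interleukin-1 family was followed through 8 genes of the 19465 in the count table, namely the ligands Il1a, Il1b, Il33 and Il18, the antagonist Il1rn, the signalling receptors Il1r1 and Il1rl1, and the decoy receptor Il1r2. They were found by their symbols, and all 8 were present in every section. Their unique molecular identifiers (UMIs, each standing for 1 captured probe pair) were counted in spots of the Visium array with more than 200 genes, which left 9339 of 9445 spots under tissue. Levels are given as CPM (UMIs of the gene scaled to 1000000 UMIs of the section or spot class) with exact 95% Poisson intervals, which cover counting error only.

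The sections came from 2 BALB/c mice, called A and B, that had received 100000 4T1 cells in the mammary fat pad at 8 weeks of age. 4T1 cells are a BALB/c breast cancer line which metastasises to lung when grown in the gland. Mammary tumour and lungs were taken 28 days after injection, fixed, embedded in paraffin and cut at 4 µm, giving 1 primary tumour section and 1 lung section per mouse. All 4 sections came from tumour-bearing mice of 1 strain, with no lung of a tumour-free animal, and the label lung covers metastatic foci and the tissue around them. Kept spots held 13532158 and 10890154 UMIs in the primary tumours of mice A and B (medians of 2931 and 1820 per spot), and 11122812 and 30240176 in the lungs (medians of 6555 and 9174.5). Alveolar markers took 1.32% (mouse A) and 0.751% (mouse B) of lung UMIs and at most 0.00693% in the primary tumours. Markers of 4T1 tissue (Hmga2, Plau, Mmp3, Csf3) took 0.382% and 0.466% in the primary tumours, 0.104% in the lung of mouse B and 0.00887% in that of mouse A. Neutrophil markers took 0.268% and 1.16% in the primary tumours and 8.37% and 3.39% in the lungs. Olfactory and vomeronasal receptor genes, which these tissues are not expected to use, gave a background whose 95th percentile was 1.70 and 19.0 CPM in the primary tumours and 0.539 and 0.397 CPM in the lungs. The primary tumour of mouse B therefore stands apart, and values there are read against its own background.

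IL-1α and IL-1β bind IL-1R1, which pairs with an accessory chain and signals through MyD88, IRAK kinases and NF-κB. IL-1 receptor antagonist, the product of Il1rn, occupies the same receptor without signalling, and IL-1R2 binds the ligand but lacks the signalling domain. IL-33, a nuclear alarmin of barrier and stromal cells, acts on ST2, the product of Il1rl1, and IL-18 acts on its own receptor pair. IL-1β and IL-18 are made as precursors that caspase-1 cleaves in the inflammasome, and neutrophil proteases can also cleave them. In 4T1 tumours, which secrete G-CSF, the host accumulates neutrophils in blood and lung, and neutrophils are known to carry Il1b and Il1r2 transcripts.

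The genes lie in a few places of the mouse genome (files on mm10, positions from GENCODE M21 on the same assembly). The receptors stand in a row on the plus strand of chromosome 1, with Il1r2 at chr1:40074079-40125231, Il1r1 at chr1:40225080-40317257 and Il1rl1 at chr1:40429570-40465415. On chromosome 2, Il1a (chr2:129299610-129309972) and Il1b (chr2:129364570-129371139) are on the minus strand with 54.6 kb between them, and Il1rn is at chr2:24336853-24351494 on the plus strand. Il18 lies at chr9:50554827-50581840 and Il33 at chr19:29925114-29960718, both on the plus strand. Neighbouring genes of the family did not share one pattern in these sections, as the values of Il1a beside Il1b and of Il1r1 beside Il1r2 show.

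Sequence before the transcript start is shown for the 3 members that moved together with neutrophil markers (Il1b, Il1rn, Il1r2) and for Il33, the member called between the tissues. The windows come from RefSeq (GRCm38.p6), hold the 250 bases before a transcript start, cut short where an annotated exon begins earlier, and run 5′ to 3′ on the strand of the gene. Both strands were searched for the NF-κB consensus, a C/EBP motif (TTGCNNAA), an AP-1 motif (TGANTCA), an ETS core (GAGGAA) and a TATA box (TATAAA). Capitals mark the matches, which did not overlap one another. The windows are Il1b at chr2:129371140-129371389 (minus strand), Il1rn before its first start at chr2:24336610-24336852 and before its second start at chr2:24345041-24345287, Il1r2 at chr1:40085843-40085984 and Il33 at chr19:29924863-29925112.
Il1b: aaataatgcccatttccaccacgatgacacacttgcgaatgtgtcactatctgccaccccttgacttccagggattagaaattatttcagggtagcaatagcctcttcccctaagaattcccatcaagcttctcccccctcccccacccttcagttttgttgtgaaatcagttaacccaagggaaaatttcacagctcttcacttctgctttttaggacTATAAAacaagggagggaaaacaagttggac
Il1rn first start: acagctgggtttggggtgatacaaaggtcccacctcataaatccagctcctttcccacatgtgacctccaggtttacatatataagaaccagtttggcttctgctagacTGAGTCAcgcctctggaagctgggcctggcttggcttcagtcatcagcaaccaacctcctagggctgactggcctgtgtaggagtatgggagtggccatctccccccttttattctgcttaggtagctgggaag
Il1rn second start: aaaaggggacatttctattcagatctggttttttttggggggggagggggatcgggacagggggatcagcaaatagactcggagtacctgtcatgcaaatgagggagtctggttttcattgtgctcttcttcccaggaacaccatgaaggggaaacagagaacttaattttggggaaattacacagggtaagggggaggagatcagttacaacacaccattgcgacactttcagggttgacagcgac
Il1r2: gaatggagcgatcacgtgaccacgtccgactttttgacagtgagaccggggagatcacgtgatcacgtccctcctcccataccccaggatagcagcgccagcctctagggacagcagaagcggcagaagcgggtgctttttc
Il33: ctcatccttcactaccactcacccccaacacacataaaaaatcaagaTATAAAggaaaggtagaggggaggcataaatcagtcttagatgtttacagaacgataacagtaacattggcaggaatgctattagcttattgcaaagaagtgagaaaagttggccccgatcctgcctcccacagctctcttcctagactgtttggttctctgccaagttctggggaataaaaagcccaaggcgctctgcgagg
The Il1b window held a TATA box whose first base lies 31 bases before the window's end, and the Il33 window held one 203 bases before its end. A TATA box occurred in 12.4% of the 32851 windows of 250 bases in the table. The first Il1rn window held an AP-1 motif, which 6.64% of windows of its length contained. The second Il1rn window and the 142-base window of Il1r2, whose RefSeq start lies inside the span of longer annotated transcripts, held none of the 5 motifs. The 32851 windows include 3 for Il1rn and 2 for Il33, and matches are given only for those printed. The 3 members that moved together thus had no searched motif in common in the printed windows, and a match or its absence is only a description of the letters.

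Among the ligands, Il1b, the secreted inflammatory form, differed most between the lungs of the 2 mice. It was at 454 CPM (442 to 465) and 711 CPM (696 to 727) in the primary tumours of mice A and B and at 774 CPM (758 to 790) and 198 CPM (193 to 203) in the lungs. The lungs were therefore the highest and the lowest section, and the tissues overlapped. Within mouse A the lung was at 1.71 times the primary tumour (1.65 to 1.76), and within mouse B at 0.278 times (0.269 to 0.288). Il1a, the ligand kept in cells until damage, was at 12.9 CPM (11.02 to 14.9) and 18.4 CPM (15.9 to 21.1) in the primary tumours and at 5.66 CPM (4.35 to 7.25) and 7.97 CPM (6.995 to 9.04) in the lungs. Both lungs were below both primary tumours, but the value of the primary tumour of mouse B lay under the 95th percentile of its receptor genes.

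Il33 was at 30.1 CPM (27.2 to 33.1) and 28.7 CPM (25.6 to 32.1) in the primary tumours and at 52.6 CPM (48.4 to 57.0) and 93.8 CPM (90.4 to 97.4) in the lungs. Both lungs lay above both primary tumours, and did so too less the mean of the receptor genes (29.3 and 20.9 CPM in the primary tumours, 52.4 and 93.7 CPM in the lungs). Il18 was at 35.1 CPM (32.0 to 38.4) and 29.8 CPM (26.7 to 33.3) in the primary tumours and at 18.0 CPM (15.6 to 20.7) and 23.7 CPM (22.0 to 25.5) in the lungs. Less the mean of the receptor genes, Il18 stood at 34.4 and 22.0 CPM in the primary tumours and 17.8 and 23.5 CPM in the lungs, so the tissues overlapped and mouse B had the reverse order. At a common depth of 1000 UMIs, in spots that reached it, Il33 was seen in 2.99% and 3.20% of primary tumour spots and 4.03% and 8.97% of lung spots. Before thinning it was seen in 13.3%, 10.6%, 25.5% and 51.4% of all kept spots. Thinning left out 886 and 56 shallower spots of the primary tumours of mice A and B, so depth and the choice of spots changed together there. In the lungs, where it left out 10 and 5, the share of spots with a UMI followed depth as well as level, which is why levels are compared as CPM.

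Of the regulators, Il1rn was at 197 CPM (190 to 205) and 194 CPM (186 to 203) in the primary tumours and at 119 CPM (113 to 126) and 70.2 CPM (67.2 to 73.3) in the lungs. Both lungs lay below the primary tumours, whose intervals overlapped. Il1r2 was at 89.1 CPM (84.2 to 94.3) and 227 CPM (218 to 236) in the primary tumours and at 169 CPM (162 to 177) and 300 CPM (294 to 306) in the lungs. In each mouse the lung was above the primary tumour, by 1.90 times in mouse A and 1.32 times in mouse B, but the tissues overlapped. Il1r1 was at 70.9 CPM (66.5 to 75.6) and 47.1 CPM (43.1 to 51.4) in the primary tumours and at 43.1 CPM (39.3 to 47.1) and 62.4 CPM (59.6 to 65.3) in the lungs, with opposite orders in the 2 mice. Il1rl1 was at 4.29 CPM (3.25 to 5.54) and 9.64 CPM (7.89 to 11.7) in the primary tumours and 8.45 CPM (6.83 to 10.3) and 3.94 CPM (3.26 to 4.71) in the lungs. In the primary tumour of mouse B, 79.3% of receptor genes lay below Il1rl1, so its level there could not be told from background. Probe pairs differ in number and efficiency between genes, so levels were compared between sections and not between members.

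**Figure D1:**
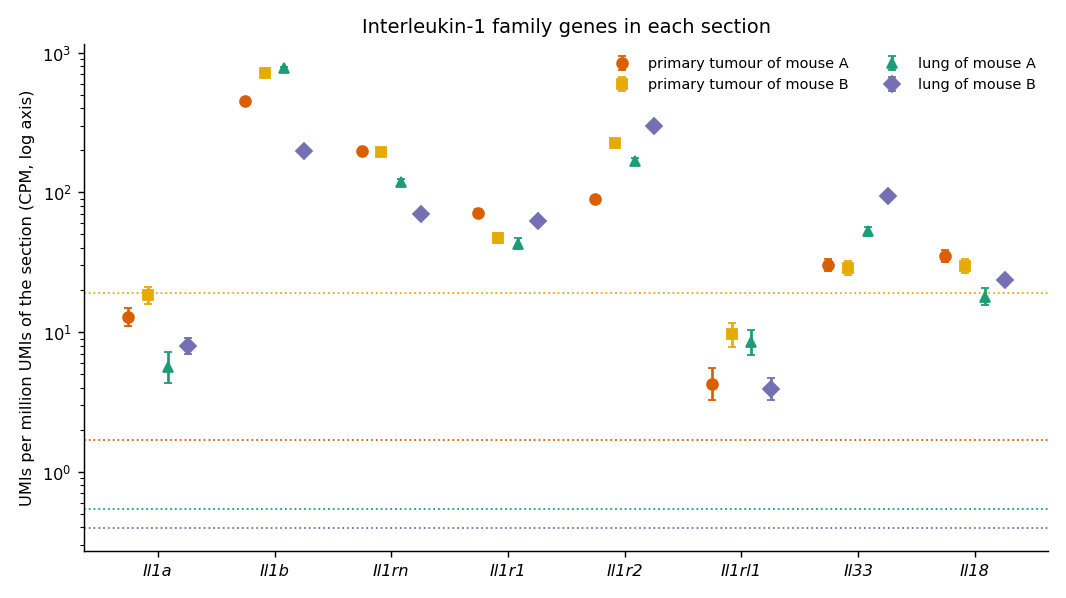
Level of each member in the 4 sections, in CPM on a log axis, with exact 95% Poisson intervals; dotted lines give the 95th percentile of receptor genes in the section of the same colour. Il33 lies higher in both lungs (52.6 and 93.8 CPM) than in both primary tumours (30.1 and 28.7 CPM), and Il1b has its highest and its lowest value in the lungs.

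Lung was then compared with primary tumour over the section sums, with 2 sections per tissue, by the quasi-likelihood test of edgeR, with p-values adjusted by Benjamini and Hochberg's method over all 15267 genes tested. Of the 8 members, 1 was called higher in lung, against 6.31% of all genes tested, and 0 were called lower, against 1.15% of genes. The member called was Il33, with a log2 difference of 1.58 (SE 0.37, adjusted p = 0.0334), positive in both mice (1.07 in mouse A and 1.91 in mouse B on the same scale). The call was lost without the primary tumour of mouse B (1.42, adjusted p = 0.213), with library size in place of TMM scaling (1.30, 0.125) and in spots with at least 2000 UMIs (1.46, 0.0728), while the difference stayed positive. With the mouse as a block Il33 stayed called (adjusted p = 0.00463), while the number of genes called over the table went from 1139 to 1817. In sections as in bulk tissue, fewer cells of a type and less RNA per cell cannot be told apart.

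The other members were not called. The log2 difference of lung against primary tumour was 0.85 (SE 0.47, adjusted p = 0.318) for Il1r2, -0.71 (SE 0.42, adjusted p = 0.353) for Il1rn and -0.90 (SE 0.58, adjusted p = 0.396) for Il1a in edgeR, each of the same sign in both mice. Il18 gave -0.36 (SE 0.37), Il1b 0.13 (SE 0.65), Il1r1 0.10 (SE 0.37) and Il1rl1 0.20 (SE 0.87), and the last 3 had opposite signs in the 2 mice. An exact permutation test of 2 against 2 sections cannot go below p = 0.333.

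The next question was how the members relate to neutrophils inside a section. Spots of each section were cut into quartiles by the share of their UMIs on 10 neutrophil markers (S100a8, S100a9, Ly6g, Camp, Ngp, Ltf, Retnlg, Mmp8, Cxcr2, Csf3r), and the highest quartile was set against the lowest, with the section as a block. In the lungs, Il1b, Il1rn and Il1r2 rose with the neutrophil share and Il1r1 fell. This made 3 of 8 members called higher, where 12.5% of the 18896 genes tested were, and 1 called lower, where 9.10% were.

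Il1r2 rose most. From the lowest to the highest neutrophil quartile it went through 112, 153, 182 and 222 CPM in the lung of mouse A and through 76.9, 214, 485 and 727 CPM in that of mouse B. The top quartile was thus at 1.98 times the bottom one in mouse A (1.73 to 2.27) and at 9.46 times in mouse B (8.79 to 10.2). The fitted log2 difference was 2.57 (SE 0.40, adjusted p = 0.000649, edgeR). Among the alternatives tried, this call was lost only when the section was no longer a block (2.80, adjusted p = 0.531), and without the lung of mouse B the difference was 1.43 (adjusted p = 0.00978). A fit with 1 lung section left takes its spread from the primary tumours and assumes that the lone lung varies like them, here and wherever a lung is left out, so its p is no support from a second animal.

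Il1b went through 560, 774, 861 and 892 CPM in the lung of mouse A and 101, 161, 270 and 392 CPM in that of mouse B. It increased at every step in both lungs, although its lowest quartile in mouse A was above its highest in mouse B. The fitted log2 difference was 1.81 (SE 0.35, adjusted p = 0.00143, edgeR), and it was 1.12 and no longer called without the lung of mouse B (adjusted p = 0.135). Il1rn went through 94.3, 123, 122 and 137 CPM in mouse A and 39.3, 70.7, 93.9 and 113 CPM in mouse B, with a fitted difference of 1.499 (SE 0.26, adjusted p = 0.000974, edgeR). Without the lung of mouse B, Il1rn was at 0.98 and no longer called. Both calls were also lost without the section block (1.41 for Il1b and 1.37 for Il1rn, adjusted p = 0.606 and 0.531, edgeR).

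Il1r1, the signalling receptor, went the other way. It fell from 70.3 to 30.7 CPM between the lowest and the highest neutrophil quartile in the lung of mouse A and from 72.0 to 36.8 CPM in that of mouse B. The fitted log2 difference was -0.62 (SE 0.22, adjusted p = 0.0494, edgeR), just inside the threshold, and it lost the call in 8 of the alternatives, among them each section left out in turn (adjusted p from 0.0543 to 0.268). The fitted value stayed negative in each of these. The remaining members were not called, with fitted differences of -0.37 (SE 0.45) for Il1a, 0.32 (SE 0.55) for Il1rl1, -0.17 (SE 0.29) for Il33 and -0.06 (SE 0.23) for Il18. Il33 fell from 86.3 to 40.1 CPM in the lung of mouse A, but stood at 84.2 and 78.2 CPM in that of mouse B with a maximum of 113 CPM in the second quartile.

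Other tissue moved with the neutrophil share. In the lung of mouse B, markers of 4T1 tissue took 0.179% of UMIs in the lowest quartile and 0.0230% in the highest, alveolar markers 0.216% and 1.13%, and the median depth went from 15946 to 7350 UMIs. In the lung of mouse A, the 4T1 share went from 0.0211% to 0.00301%, the alveolar share from 1.28% to 1.14% and the depth from 6472 to 7400.5 UMIs. Their part in the results was not tested beyond the split by alveolar share given further on. Scaling by library size in place of TMM moved the median log2 difference over all genes from 0.10 to -0.31 in this comparison, and the split of calls from 2367 higher and 1719 lower to 1228 and 4361, so the fitted values are relative to TMM scaling. Il1b, Il1rn, Il1r2 and Il1r1 kept their direction and call under library size.

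In the primary tumours, 2 of 8 members were called higher with the neutrophil share, where 0.196% of the 18896 genes were, and 0 were called lower, where 0.00529% were. Il1rn went through 130, 171, 234 and 355 CPM in mouse A and 79.2, 198, 320 and 458 CPM in mouse B, with a fitted log2 difference of 1.79 (SE 0.26, adjusted p = 0.00774, edgeR). Il1b went through 336, 377, 497 and 886 CPM in mouse A and 262, 733, 1061 and 1863 CPM in mouse B, with 1.89 (SE 0.35, adjusted p = 0.0402, edgeR). Both increased at every step in both tumours. Without the primary tumour of mouse A the differences were 2.22 for Il1rn and 2.52 for Il1b, and without that of mouse B 1.43 and 1.38. Neither gene was called in these fits. Here and wherever a primary tumour is left out, 1 such section remains and the spread comes from the lungs. Both calls were lost without S100a8 and S100a9 among the markers (1.35 and 1.69, adjusted p = 0.271 and 0.292, edgeR). They were also lost in spots with at least 2000 UMIs (1.57 and 1.84, 0.0563 and 0.0918), after thinning to 1000 UMIs (1.59 and 1.67, 0.0521 and 0.137), with markers of the same weight (1.28 and 1.65, 0.225 and 0.226) and without the section block (1.75 and 1.94, 0.918 for both), and that of Il1b with 3 classes of spots (1.68, 0.0649), so the direction held while the calls did not.

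Il1r2 went through 51.2, 74.3, 102 and 196 CPM in mouse A and 117, 209, 328 and 524 CPM in mouse B. Its fitted log2 difference of 1.86 (SE 0.38) was as large as that of Il1b but missed the threshold (adjusted p = 0.0603, edgeR), which it passed in DESeq2 (0.000143) and without the filter on low counts (0.0276). Il1r1 went from 92.2 to 50.0 CPM and from 49.5 to 37.6 CPM, with -0.83 (SE 0.22, adjusted p = 0.144), and Il1a from 6.52 to 24.7 CPM and from 12.7 to 28.7 CPM, with 1.31 (SE 0.43, adjusted p = 0.197, edgeR). Il1rl1 (0.60, SE 0.59), Il33 (-0.34, SE 0.33) and Il18 (0.21, SE 0.23) were not called either. The mean of the receptor genes also went from 0.365 to 2.68 CPM in mouse A and from 4.16 to 12.3 CPM in mouse B across these quartiles, and its part in the values of the scarce members was not tested. In mouse A, the lowest tumour quartile had a median of 672 UMIs per spot, with 352 of its 623 spots at a neutrophil share of 0, the highest had 1635 UMIs, and the second had 8370.

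**Figure D2:**
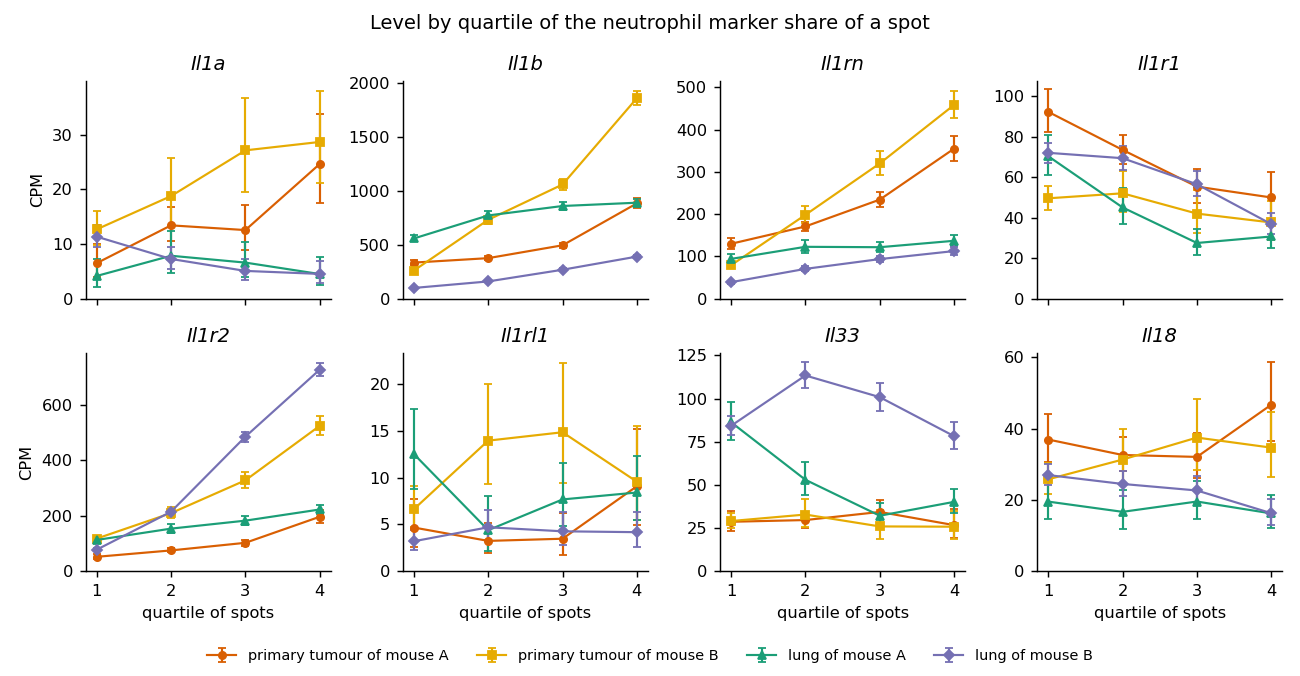
Level of each member (CPM with exact 95% Poisson intervals) in the 4 quartiles of spots by neutrophil marker share, quartile 1 the lowest, in each section; the scale of the vertical axis differs between panels. Il1b and Il1r2 increase at every step in the 4 sections, and Il1r1 ends lower than it starts in the 4 sections.

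Whether the relation to neutrophils differs between the tissues was tested as an interaction in the same fit. Of the 8 members, 0 were called higher in lung than in primary tumour, where 3.01% of genes were, and 0 lower, where 1.12% were. The difference between the tissues was -1.68 (SE 0.63) for Il1a, whose unadjusted p of 0.0160 became 0.133 after adjustment in edgeR. It was 0.71 (SE 0.54) for Il1r2, -0.08 (SE 0.48) for Il1b, -0.29 (SE 0.36) for Il1rn and 0.21 (SE 0.31) for Il1r1. Library size in place of TMM turned the split of calls over all genes from 568 higher and 212 lower to 90 and 1563, and Il1a was then called (-2.34, adjusted p = 0.0329). Without the lung of mouse A, Il1a (-2.19) and Il1r2 (1.77) were called, and without the lung of mouse B Il1r2 was at -0.43, fits with 1 lung section whose spread comes from the primary tumours.

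Alveolar markers (Sftpc, Sftpa1, Sftpd, Lamp3, Napsa, Cldn18, Ager, Hopx, Rtkn2 and Aqp5) were used in the same way in the lungs. The lungs differed in layout, since the alveolar and the neutrophil share of a spot were nearly unrelated in mouse A (Spearman's rho -0.10 over 1697 spots) and rose together in mouse B (0.67 over 2780 spots), a description of spots that share a section. No member was called, and no gene of the 12875 tested was called higher (0%) or lower (0%) in edgeR, where 3074 genes had an unadjusted p under 0.05, while DESeq2 called 589. Il33 went through 82.5, 83.1, 72.3 and 144 CPM from the lowest to the highest alveolar quartile in the lung of mouse B, and through 55.6, 46.8, 49.8 and 58.1 CPM in that of mouse A. The top quartile was thus at 1.75 times the bottom one in mouse B (1.59 to 1.92) and at 1.04 times in mouse A (0.832 to 1.31), and the fitted difference was 0.59 (SE 0.25, adjusted p = 0.210, edgeR). Il1r2 went from 79.7 to 463 CPM in mouse B and from 180 to 164 CPM in mouse A (1.08, SE 0.71), and Il1b from 98.4 to 263 CPM and from 725 to 740 CPM (0.77, SE 0.41). Il1rn gave 0.67 (SE 0.36), Il1rl1 0.63 (SE 0.36), Il1r1 -0.06 (SE 0.16), Il1a -0.49 (SE 0.52) and Il18 -0.08 (SE 0.22), none of them called. Over larger blocks of the array, described further on, Il1r2 and Il1b did go with the alveolar markers in both lungs (Pearson r 0.594 and 0.752 over 71 blocks in mouse A, 0.778 and 0.699 over 117 in mouse B), and their r with neutrophil markers over the same blocks was 0.811 and 0.914 in mouse A and 0.942 and 0.863 in mouse B.

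**Figure D3:**
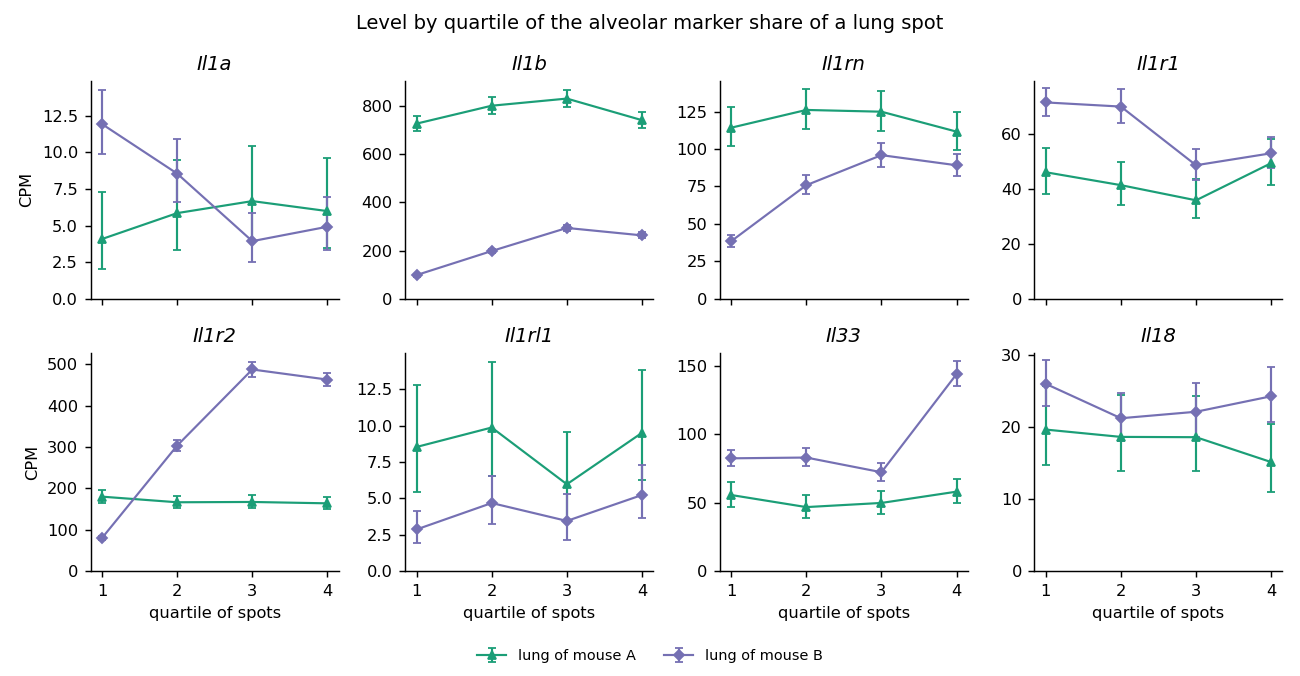
Level of each member (CPM with exact 95% Poisson intervals) in the 4 quartiles of lung spots by alveolar marker share, quartile 1 the lowest; the scale of the vertical axis differs between panels. In the lung of mouse B, Il33 is highest in the top quartile (144 CPM) and Il1r2 goes from 79.7 to 463 CPM, while in the lung of mouse A the lowest and the highest quartile are at 55.6 and 58.1 CPM for Il33 and at 180 and 164 CPM for Il1r2.

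To set both shares side by side, each lung was cut into 4 classes by the medians of the alveolar and the neutrophil share. Il1r2 was higher in neutrophil-high spots at either alveolar level. In alveolar-low spots it was at 117 and 210 CPM (neutrophil-low and neutrophil-high) in mouse A and at 106 and 651 CPM in mouse B, and in alveolar-high spots at 139 and 195 CPM and at 233 and 583 CPM. Il1b gave 593 and 876 CPM and 112 and 336 CPM in alveolar-low spots, and 699 and 878 CPM and 175 and 324 CPM in alveolar-high spots, in the same order. Within the neutrophil-high spots of mouse B neither gene was higher where alveolar markers were high. Within the neutrophil-low spots both genes were higher where alveolar markers were high, in both mice. Il33 showed the reverse layout, with 75.2 and 35.0 CPM in alveolar-low spots and 68.9 and 37.7 CPM in alveolar-high spots of mouse A. In mouse B, Il33 was at 87.0 and 52.9 CPM in alveolar-low spots and at 130.5 and 99.95 CPM in alveolar-high spots, so it was lower in neutrophil-high spots at both alveolar levels and higher in alveolar-high spots at both neutrophil levels. Il1r1 was also lower in the neutrophil-high class of all 4 pairs, at 30.7 against 63.2 CPM and 27.3 against 56.2 CPM in mouse A and at 53.8 against 73.2 CPM and 45.7 against 62.0 CPM in mouse B. These classes have no replicate within a mouse, so the values are a description.

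**Figure D4:**
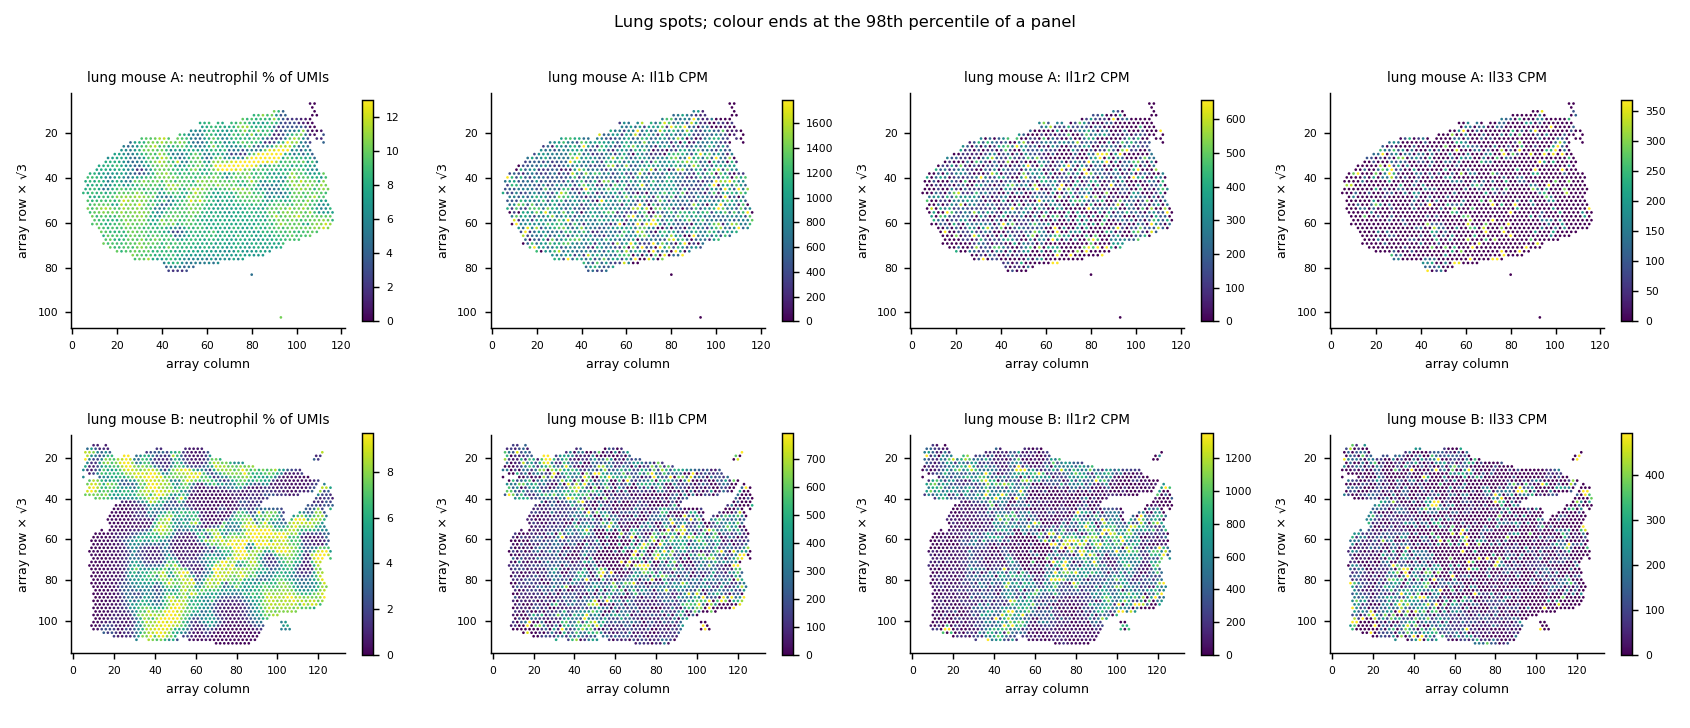
Maps of the kept spots of both lungs at their place on the array (column, and row scaled by √3 so that distances are to scale), coloured by the percent of UMIs on neutrophil markers and by the CPM of Il1b, Il1r2 and Il33 in the spot; each colour scale ends at the 98th percentile of its panel. In the lung of mouse B, Il1b and Il1r2 are high in the bands where neutrophil markers are high and low in the patches where those markers are low, and Il33 does not follow the bands.

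The lungs hold 4T1 foci, whose outlines were not used here, so spots were ranked by their share on 4T1 tissue markers instead. In mouse A this share was 0 in all spots of the lower 2 quartiles, and the highest quartile began at 0.0115%. In edgeR no member was called, and no gene of 12743 was called higher (0%) or lower (0%), where 4442 had an unadjusted p under 0.05, while DESeq2 called 1147. Il1r2 went from 606 to 95.8 CPM between the lowest and the highest quartile in mouse B and from 174 to 136 CPM in mouse A (-1.59, SE 0.55, adjusted p = 0.127), which DESeq2 (adjusted p = 0.0356) and edgeR without the filter on low counts (0.0483) called. Il1b went from 321 to 108 CPM and from 794 to 679 CPM (-0.9996, SE 0.36, adjusted p = 0.130, edgeR), and Il1rn from 105 to 42.6 CPM and from 124 to 116 CPM (-0.80, SE 0.31, adjusted p = 0.137, edgeR). Both mice showed the same direction for these 3 members. Il1a gave 0.84 (SE 0.48), Il18 0.48 (SE 0.21), Il1r1 0.46 (SE 0.21), Il33 0.01 (SE 0.27) and Il1rl1 -0.13 (SE 0.39), none of them called. Il1a was at 12.1 CPM in the highest quartile of mouse B and at 3.78 CPM in the lowest, while mouse A had 15 UMIs in each.

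**Figure D5:**
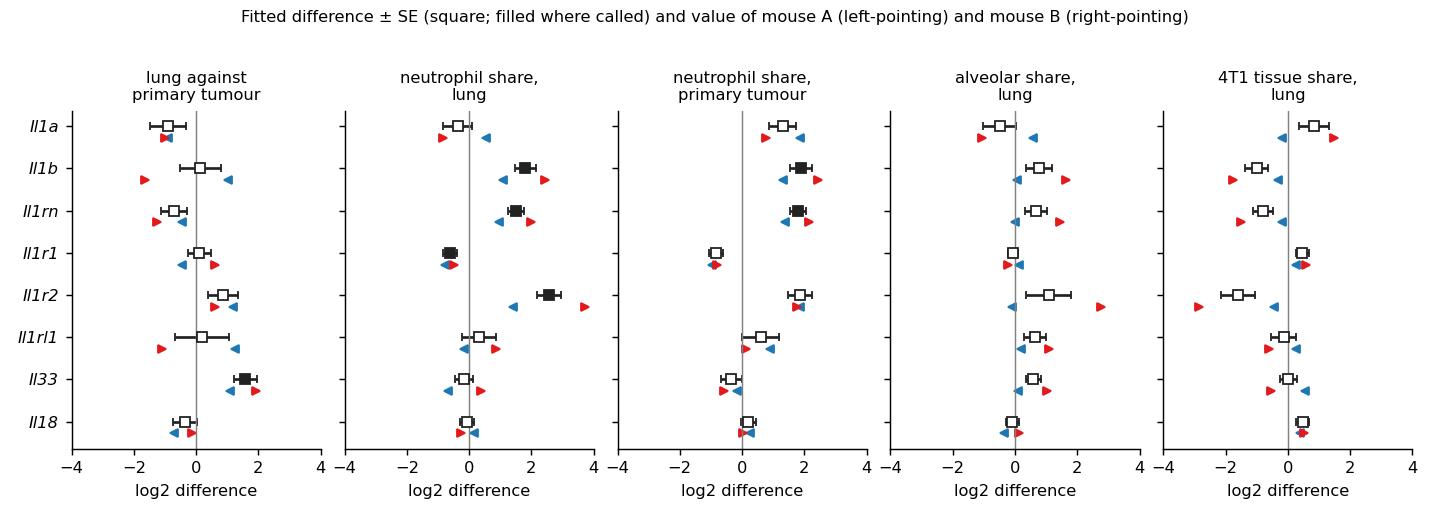
Fitted log2 difference of each member in 5 comparisons (square with its SE, filled where the adjusted p is under 0.05) and the values of mouse A (blue, pointing left) and mouse B (red, pointing right); the quartile comparisons set the highest quartile of spots against the lowest. Il33 is filled in lung against primary tumour, and Il1b and Il1rn are filled for the neutrophil share in both tissues.

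Other parts of the tissue were described by the 5% of spots with the highest share of each marker class. In fibroblast-rich lung spots (Col1a1, Col1a2, Col3a1, Dcn, Lum, Pdgfra), Il1r1 was at 2.38 times its level in the other spots in mouse A (1.75 to 3.18) and at 2.05 times in mouse B (1.70 to 2.47), and Il33 at 2.11 times (1.57 to 2.77) and 1.94 times (1.65 to 2.26). Il1b, at 0.503 and 0.681 times, and Il1r2, at 0.588 and 0.576 times, were lower there in both lungs. In fibroblast-rich spots of the primary tumours Il1r1 was at 0.995 (0.634 to 1.49) and 0.766 times (0.464 to 1.197), with no such excess. Il33 was there at 1.28 (0.675 to 2.21) and 1.57 times (0.989 to 2.38), with intervals that include 1. Macrophage-rich lung spots had Il1b at 0.590 and 0.610 times and Il1r2 at 0.413 and 0.376 times, both below the rest, and Il1r1 at 1.71 and 1.18 times. In the spots richest in endothelial markers, Il1r2 was at 1.89 times the rest in mouse B (1.72 to 2.07) and at 1.12 times in mouse A (0.876 to 1.41).

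Ratios of UMIs between members do not depend on the depth of a section, and only their change between sections is read here. There were 5.09 (4.78 to 5.42) and 3.13 (2.99 to 3.28) UMIs of Il1b per UMI of Il1r2 in the primary tumours of A and B, 4.58 (4.35 to 4.81) in the lung of mouse A and 0.659 (0.638 to 0.681) in that of mouse B. The ratio was thus lowest in the lung of mouse B, and there it went from 1.31 in the lowest neutrophil quartile to 0.539 in the highest. Il1b per Il1rn was 2.30 and 3.66 in the primary tumours and 6.49 and 2.82 in the lungs, with overlapping tissues. Il1r1 per Il1r2 fell across the neutrophil quartiles of every section, from 1.80 to 0.255 and from 0.424 to 0.0718 in the primary tumours and from 0.627 to 0.138 and from 0.936 to 0.0506 in the lungs.

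Genes of most similar layout were sought over square blocks of the array (108 and 99 blocks in the primary tumours, 71 and 117 in the lungs), by the Pearson correlation of log2(CPM + 10) averaged over both mice. Blocks of a section share its depth and its tissue, so these are descriptions. In the lungs Il1b was closest to S100a9 (mean r 0.895), Retnlg (0.888) and Wfdc17 (0.887) of 8417 genes, and Il1r2 to Ifitm6 (0.887), Grina (0.885) and S100a9 (0.884). S100a9 and Retnlg are themselves among the neutrophil markers. Il1rn was less tightly tied, to Cd84 (0.60), Cyba (0.59) and Srgn (0.59). Il1r1 was closest to Col5a1 (0.53), a fibrillar collagen chain, followed by Sec31a (0.52) and Cdc23 (0.50), Il33 to Scd1 (0.49), Fth1 (0.47) and Ctsb (0.43), and Il18 to H2-Q6 (0.40), with Larp1 (0.38) also close. In the primary tumours, out of 7519 genes, Il1b was closest to Ifitm1 (0.75), S100a9 (0.73) and S100a8 (0.70), Il1r2 to S100a9 (0.69), Srgn (0.68) and S100a8 (0.67), and Il1rn to S100a8 (0.66), S100a9 (0.64) and Saa3 (0.61). The closest genes reached 0.38 for Il1r1 (Psmg3, then Atp5k and Tmem175), 0.40 for Il33 (Prdm1, then Mast2 and Chst2) and 0.43 for Il18 (Kpna4, then Zfp36 and Ndufa13), weak correlations in sparse counts. Il1a and Il1rl1 had too few UMIs for this step.

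The rest of the pathway was followed through a list of 65 symbols, 58 of them in the table, sorted by role. In lung against primary tumour, 6 of the 52 tested were called higher and 7 lower (6.31% and 1.15% over all genes), and their median log2 difference was 0.23, beside -0.0046 over all genes. The adaptor Myd88 rose by 1.90 (SE 0.46, adjusted p = 0.0378, edgeR) and Irak3, an inhibitory kinase of the family, by 2.72 (SE 0.58, adjusted p = 0.0246), while Tnfaip3, an NF-κB-induced inhibitor of the pathway, fell by 1.46 (SE 0.36, adjusted p = 0.0417). Among other ligands and receptors, Il1f9 (IL-36γ) rose by 2.87 (SE 0.69, adjusted p = 0.0367) and Il18rap, a chain of the IL-18 receptor, by 1.54 (SE 0.39, adjusted p = 0.0456). Prtn3, a neutrophil serine protease, rose by 3.96 (SE 0.79, adjusted p = 0.0192). Of the 15 genes known to be induced by IL-1, 6 fell and 0 rose, with the chemokines Cxcl3 (-5.70, SE 0.60, adjusted p = 0.00279) and Cxcl5 (-3.83, SE 0.65, adjusted p = 0.0105) furthest. The list holds the 4T1 markers Csf3 and Mmp3, and the 4T1 share went from 0.382% and 0.466% in the primary tumours to 0.00887% and 0.104% in the lungs, whose part in these values was not tested. Cxcl3 was at 50.5 and 143 CPM in the primary tumours and at 1.08 and 1.88 CPM in the lungs.

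With the neutrophil share in the lungs, 22 of 57 tested pathway genes rose and 10 fell, where 12.5% and 9.10% of all genes did, shares against which the counts by role are also to be read. These calls ended, with all others over the table, without the section block. Of the inflammasome and processing genes, 9 of 10 rose, led by the neutrophil proteases Prtn3 (2.04, SE 0.42, adjusted p = 0.00218) and Elane (1.82, SE 0.47, adjusted p = 0.0106, edgeR). Of 8 receptors and binding proteins 3 rose, among them Il18rap (2.03, SE 0.31) and the shared accessory chain Il1rap (1.44, SE 0.25), and of 4 tested ligands 1 did, Il1f9 (2.91, SE 0.52). Among 20 adaptor, kinase and NF-κB genes 7 rose, led by Irak3 (2.10, SE 0.38) and Myd88 (1.32, SE 0.24), and 1 fell, Nfkb2 (-0.68, SE 0.21). The IL-1-induced genes split, since 2 rose (Saa3, 2.61, SE 0.49, and Lcn2, 2.44, SE 0.50) and 9 of 15 fell, with Csf3 (-3.17, SE 0.42) and Mmp3 (-2.43, SE 0.34) furthest. Csf3 and Mmp3 are also among the markers of 4T1 tissue used here, and Saa3 and Lcn2 are acute-phase genes.

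In the primary tumours 4 of the 57 rose with the neutrophil share and 0 fell, where 0.196% and 0.00529% of all genes did. They were Cxcl3 (3.07, SE 0.24, adjusted p = 1.06e-05), Il1f9 (2.92, SE 0.56, adjusted p = 0.0435), the kinase Irak2 (1.73, SE 0.23, adjusted p = 0.00386) and the inflammasome sensor Nlrp3 (1.67, SE 0.33, adjusted p = 0.0451, edgeR). These 4 calls ended, with all others of the 38 over the table, without S100a8 and S100a9, without the section block and without the primary tumour of either mouse. The interaction between tissue and neutrophil share called 3 of the 57 higher in lung, Gsdmd, Myd88 and Tab2, and 7 lower, where 3.01% and 1.12% of all genes were called. The 7 lower were among the 15 genes of the IL-1-induced list, which also holds Csf3 and Mmp3 of the 4T1 markers. Over the whole table this test called 780 genes, but 2 with 3 classes of spots in place of 4 and 0 without the section block or without the primary tumour of either mouse, so most of these calls rest on those choices. With the alveolar share (0 of 49 tested called) and the 4T1 share (0 of 47) no pathway gene was called, where 14 and 25 had an unadjusted p under 0.05 in edgeR.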

How the data were processed

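Visium libraries of fixed, paraffin-embedded sections of the primary tumour and lung of 2 mice were analysed. The values deposited by the authors are whole UMI counts for every gene in every spot. The header of the deposited counts names Space Ranger 2.0.0, and the processing notes of the authors name mm10. The counts come from probe pairs, so each gene depends on its own probes. Depth per section is given in the report, and intervals are exact Poisson, or exact binomial for ratios, at 95%.

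Spots with more than 200 genes were kept. Spots are small regions that can hold several cells and are not replicates. UMIs were therefore summed per section, or per section and quartile of a marker share, and tested with edgeR 4.0.16 (TMM, filterByExpr, quasi-likelihood test, Benjamini-Hochberg, threshold 0.05) in R 4.3.3. Quartile fits had the section as a block. No doublets were called and no cell-type makeup was estimated. Sftpb and Scgb1a1, and Cxcl2, Nlrc4, Nlrp1b and the Il36 symbols of the pathway list, were not matched in the table. Alternatives were DESeq2 1.42.0, library size only, no filter, other spot filters, other cuts and weights of the marker share, the mouse or section block and each section left out. Fits were tested on simulated counts. Tables and figures were made in Python.

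The members and lists were chosen with earlier results of these data known. All 8 members are described. Of the other pathway genes, the text names at most 2 higher and 2 lower per role and comparison, those with the largest change among genes past the threshold that moved the same way in both mice, and for layout the 3 genes most correlated with each member of at least 200 UMIs in both sections of a tissue, among genes with a mean of at least 0.1 UMI per spot in both. Of these, 1 gene is not reported here. Lung and primary tumour with the same number come from the same animal, so the numbers pair the sections. The deviations of paired sections from their tissue means correlated at -0.293.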

Additional observations from a re-analysis of the deposited data

Results flagged for a closer look

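The interaction test (edgeR, threshold 0.05) called 3 of 57 pathway genes higher in lung and 7 lower in their relation to the neutrophil share, where 3.01% and 1.12% of all genes were called, and 0 of 8 members. Over all genes tested 780 were called, but 2 with 3 classes of spots in place of 4 and 0 without the section block or without the primary tumour of either mouse. Given here are those of the 10 that the rule for named genes picked in any of the comparisons. Values are log2 differences between the highest and the lowest neutrophil quartile, lung less primary tumour, and all had the same sign in both mice. Cxcl3 differed by -5.47 (SE 0.59, adjusted p = 0.00111), from -2.40 in the lungs and 3.07 in the primary tumours. The whole lung sections held only 12 (mouse A) and 57 (mouse B) UMIs of Cxcl3, so its lung value rests on few counts. Csf3 differed by -2.44 (SE 0.52, adjusted p = 0.0276), from -3.17 and -0.73. Csf3 and Mmp3 are 2 of the 4 markers of 4T1 tissue, whose share went from 0.179% to 0.0230% across the neutrophil quartiles of the lung of mouse B and from 0.0211% to 0.00301% in mouse A, and the part of this in their values was not tested. Cxcl5 differed by -2.27 (SE 0.50, adjusted p = 0.0288), from -1.98 and 0.29. Mmp3 differed by -2.09 (SE 0.45, adjusted p = 0.0276), from -2.43 and -0.34. Gsdmd, the pore former cleaved by inflammatory caspases, differed by 1.72 (SE 0.37, adjusted p = 0.0276), from 1.30 and -0.42. Myd88 differed by 1.41 (SE 0.35, adjusted p = 0.0361), from 1.32 and -0.10. Tab2, an adaptor of the TAK1 kinase, differed by 1.36 (SE 0.33, adjusted p = 0.0351), from 0.88 and -0.48.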

How the results depend on the processing

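Of 99 tested alternatives of the 7 called member values, 68 kept the call and 31 lost it, and none changed sign. Of 632 member values under alternatives, 33 were counted as changes of sign, all of them uncalled values. This count leaves out uncalled values in a single mouse or less the mean of the receptor genes, some of which also changed sign. Leaving out a section, the crossed pairing and the fit of lung sections alone were chosen after seeing the data. The cause of each shift below was not tested, except that leaving out a section leaves fewer samples. Il1a and Il1rl1 had the fewest UMIs of the members in every section, and counts of 2 animals limit every test.

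The number of genes called between lung and primary tumour was 1139. It was 1817 with the mouse as a replicate block, 2644 in DESeq2, 328 with library size only, 2022 without the filter on low counts, 486 in spots with at least 2000 UMIs, and 883 to 6604 with a section left out. A crossed pairing of the mice called 2565. For the neutrophil share in lung (4086 genes), 0 were called without the section block, where no member was called either, and 857 to 6103 with a section left out. In primary tumour (38 genes) the count was 211 in DESeq2, 81 without the filter, 17 in spots with at least 2000 UMIs, 0 without the section block, 24 with 3 classes of spots in place of 4, 10 with spots thinned to 1000 UMIs, 4 with markers of the same weight, 0 without S100a8 and S100a9, and 0 to 1939 with a section left out. The interaction (780 genes) gave 1653 with library size only, 503 in spots with at least 2000 UMIs, 0 without the section block, 2 with 3 classes of spots in place of 4, 462 after thinning, and 0 to 3771 with a section left out. The alveolar share (0 genes) gave 589 in DESeq2, 96 without the filter and 1 with markers of the same weight. The 4T1 share (0 genes) gave 1147 in DESeq2 and 1285 without the filter.

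Values that changed sign are log2 differences. In lung against primary tumour, Il1b was -0.24 with the replicate block, -0.24 with the crossed pairing and -0.28 with library size only, Il1r1 -0.17 with library size only and -0.032 in spots with at least 2000 UMIs, and Il1rl1 -0.19 with library size only. With a section or mouse left out, Il1b ran from -1.64 to 1.07, Il1r1 from -0.45 to 0.74, Il1rl1 from -1.09 to 1.25 and Il18 from -0.70 to 0.071. For the neutrophil share in lung, Il1rl1 was -0.15 with library size only, -0.21 with markers of the same weight and -0.022 without S100a8 and S100a9, and Il18 was 0.046 with 3 classes of spots in place of 4. With a section or mouse left out, Il1a ran from -0.89 to 0.56, Il1rl1 from -0.16 to 0.86, Il33 from -0.69 to 0.37 and Il18 from -0.31 to 0.18. In primary tumour, Il18 was -0.030 in spots with at least 2000 UMIs. In the interaction, Il1b was 0.063 after thinning, and Il1r1 was -0.068 in DESeq2, -0.44 with library size only, -0.067 without the filter, -0.033 after thinning, -0.45 with markers of the same weight and -0.27 without S100a8 and S100a9. With a section or mouse left out, Il1b ran there from -0.77 to 0.47, Il1rn from -0.80 to 0.13 and Il1r2 from -0.47 to 1.95. For the alveolar share, Il18 was 0.080 with 3 classes of spots in place of 4. In mouse A alone, Il1r2 was there at -0.10, Il1a at 0.59 and Il1r1 at 0.14, and in mouse B alone Il18 was at 0.12. For the 4T1 share, Il33 was -0.098 without the section block and -0.11 after thinning. In mouse B alone, Il33 was there at -0.53, and in mouse A alone Il1a was at -0.19 and Il1rl1 at 0.26.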

Other observations

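Rarer parts of the lung gave further values, as descriptions over the 5% of spots with the highest marker share against the other spots of the section. In airway-rich spots Il1b was at 0.598 times the rest in mouse A (0.529 to 0.674) and at 0.743 times in mouse B (0.626 to 0.876), and Il1rn at 0.495 (0.345 to 0.689) and 0.840 times (0.635 to 1.09). In spots rich in cardiac muscle markers, Il1r1 was at 1.34 times (0.890 to 1.96) and 1.79 times the rest (1.46 to 2.16), and Il1r2 at 0.866 and 0.636 times. In lymphoid-rich spots of mouse B, Il18 was at 0.279 times the rest (0.102 to 0.610, 6 UMIs) and Il1b at 1.49 times (1.31 to 1.69), while mouse A gave 0.854 (0.310 to 1.89) and 1.06 times (0.948 to 1.19).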
